A study of Mus musculus with 6 samples.

Results

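The genes described here make eicosanoids, the short-lived signalling lipids that cells derive from arachidonic acid. The list held 8 genes: the lipoxygenases Alox12, Alox5 and Alox15, the leukotriene genes Alox5ap and Ltc4s, the cyclooxygenases Ptgs1 and Ptgs2, and the prostaglandin D synthase Ptgds. Members were found by matching these symbols, and their older synonyms, to the platform's gene symbols. Of the 8, 5 had at least 1 probe set, which gave 8 probe sets among the 12422 that were not controls and 5 of the 8251 genes named on the array. No probe set here carried the name of Alox5, Alox5ap or Ptgs1, and these 3 genes were not analysed here. Probe sets are groups of short oligonucleotides made to report 1 transcript.

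The samples were livers of 6 male C57BL/6J mice, wild type and 8 to 10 weeks old, each measured on its own Affymetrix U74Av2 array. Mice of the BDL group (bile duct ligation, n = 3) had their common bile duct tied and cut 1 day earlier, which stops the flow of bile out of the liver. The sham group (3 mice) had a similar opening of the abdomen without ligation, 1 day earlier. Both operations were done under methoxyflurane anaesthesia, and replicates are called by the numbers in their titles, which are 1, 12 and 3 for BDL and 1, 2 and 3 for sham.

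Arachidonic acid is cut from membrane lipids by phospholipases A2 and then oxidised along separate routes. Cyclooxygenases turn it into the precursor of prostaglandins and thromboxane, lipoxygenases add oxygen at set carbons to give hydroperoxy acids, and 5-lipoxygenase with its activating protein starts the leukotrienes. In liver these enzymes are mainly known from Kupffer cells, endothelial cells, platelets and recruited leukocytes, while hepatocytes take up and degrade many of the products.

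Alox12 was the member whose groups lay apart: its signal was lower in every BDL mouse than in any sham mouse. Ltc4s and the 3 Ptgds probe sets had overlapping groups, and Alox15 and Ptgs2 lay near the bottom of the signal range. The members were picked with the BDL and sham results of these arrays in view, so their differences are given as a description, with no test. Over the whole array, limma called 0 of 9542 tested probe sets (0%) at an adjusted p of 0.05, the lowest adjusted p was 0.667, and 552 (5.78%) had an unadjusted p under 0.05.

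Alox12 and Ltc4s both lie on chromosome 11. The 250 bases before the start that RefSeq's promoter table uses for each gene (GRCm38.p6, minus strand, written 5′ to 3′ along the gene) are shown because these were the lipoxygenase and the leukotriene gene with signal above the floor. For Alox12 the outer bounds of the annotated gene reach slightly into this stretch. Capitals mark GGGCGG, the GC box, read on both strands.
Alox12, chr11:70255371-70255620: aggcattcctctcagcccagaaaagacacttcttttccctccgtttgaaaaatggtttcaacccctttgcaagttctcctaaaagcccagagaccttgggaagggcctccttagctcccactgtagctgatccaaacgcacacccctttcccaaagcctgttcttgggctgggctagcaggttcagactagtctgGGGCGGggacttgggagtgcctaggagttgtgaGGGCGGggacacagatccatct
Ltc4s, chr11:50238533-50238782: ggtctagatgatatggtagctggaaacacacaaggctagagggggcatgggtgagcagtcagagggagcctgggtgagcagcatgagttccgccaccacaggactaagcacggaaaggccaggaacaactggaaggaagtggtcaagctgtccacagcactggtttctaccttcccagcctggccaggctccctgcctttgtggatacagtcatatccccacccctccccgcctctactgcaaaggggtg
The Alox12 stretch held 2 GC boxes and the Ltc4s stretch 0, and 32.9% of 27025 mouse promoters of this length held at least 1. Neither stretch held a TATA box (TATAAA, either strand, found in 13.0% of promoters) or a GATA element (AGATAA, either strand, in 10.3%), and none of these motifs overlapped. These matches describe the letters only, and no binding was measured.

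Signals are intensities on the authors' linear scale. Any signal under 152.7 (the floor, at the 25th percentile of all signals) was raised to that level before taking log2, and a probe set was tested if at least 3 of 6 arrays exceeded it. By that filter 5 of the 8 member probe sets and 3 of the 5 genes (Alox12, Ltc4s and Ptgds) were tested, and Alox15, Ptgs2 and the other Ltc4s probe set were not. Log2 differences are BDL minus sham and their errors are limma's moderated standard errors. Sham replicate 1 stood apart at low signals: the floor or less was reached by 12.5% of its signals, against 26.1% to 27.9% on the BDL arrays and 24.4% to 31.3% on the other sham arrays. Because low signals in sham can rest on that array, differences without it are also given for the tested members and for many of the other named genes, which were added after their values were seen. The tissue label was borne out by albumin (Alb), which gave 147870 to 199675 in BDL and 125084 to 170913 in sham. These signals were near the top of the scale on all 6 arrays.

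Alox12 encodes the platelet-type 12-lipoxygenase, which makes the hydroperoxy acid that platelets release when activated. The gene lies at chr11:70241457-70255380 (GRCm38.p6), and its probe set, 102290_at, had signals of 123.2, 173.2 and 118.6 in BDL replicates 1, 12 and 3, against 736.7, 745.0 and 400.0 in sham replicates 1, 2 and 3. All 3 BDL values were below all 3 sham values, and 2 of the 3 BDL values were under the floor. Mean signals were 138 ± 30.3 for the BDL mice and 627 ± 197 for the sham mice (SD, n = 3 each). On the floored log2 scale, where those 2 BDL values stand at the floor, the difference was -1.92 (SE 0.33). Without the floor, the geometric means were 136 in BDL and 603 in sham and the log2 difference was -2.15. Of the 9542 tested probe sets, 8 had a lower difference. These are extracts of whole liver, in which fewer cells of a type and less RNA per cell cannot be told apart.

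**Figure D1:**
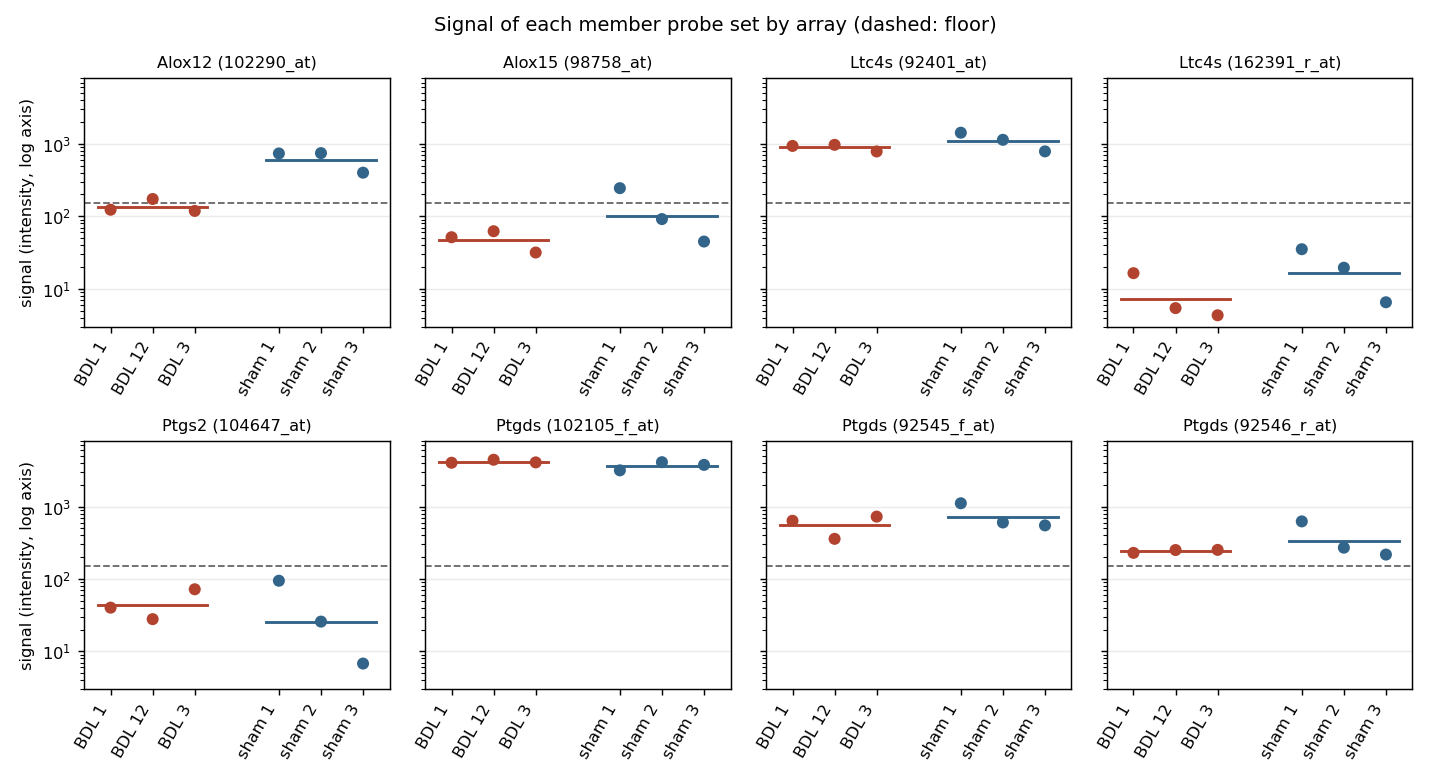
Signal of each of the 8 member probe sets on the 6 arrays. Points are single mice on a log axis (BDL red, sham blue), short lines are geometric means of 3 arrays and the dashed line is the floor of 152.7. Alox12 signals are 118.6 to 173.2 in BDL and 400.0 to 745.0 in sham, and every other probe set has overlapping groups.

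Among the 5 tested member probe sets, Alox12 was the 1 with groups apart, where 4.32% of all tested probe sets were lower in BDL with groups apart and 6.32% higher. The rank of Alox12 among the probe sets of each array was at percentiles 22.6, 29.7 and 23.9 in BDL replicates 1, 12 and 3, against 53.9, 58.4 and 48.3 in sham replicates 1, 2 and 3. The groups did not overlap in rank, and sham replicate 2 ranked highest. With 1 array left out at a time, the log2 difference ranged from -2.22 without sham replicate 3 to -1.77 without sham replicate 2, and it was -1.78 without sham replicate 1. A floor at the 40th percentile gave -0.87, because that floor of 329.1 lies above all BDL signals.

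**Figure D2:**
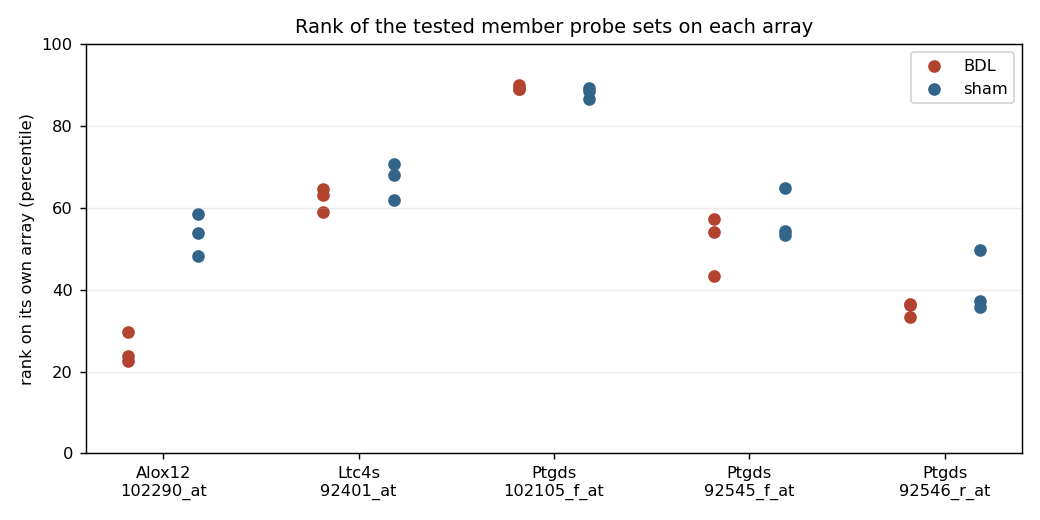
Rank of the 5 tested member probe sets on each array, as a percentile of all probe sets other than controls. Points are single mice (BDL red, left of sham, blue), to be compared within a probe set; Alox12 ranks are 22.6 to 29.7 in BDL and 48.3 to 58.4 in sham, with no overlap.

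Alox15, the 12/15-lipoxygenase known in mice from resident macrophages, is also on chromosome 11, at chr11:70344147-70390538. Its signals were 51.4, 62.2 and 31.6 in BDL replicates 1, 12 and 3, against 244.5, 91.5 and 44.8 in sham replicates 1, 2 and 3. Only sham replicate 1 exceeded the floor, and the groups overlapped. With 5 of the 6 values under the floor no fold change is given, and without sham replicate 1 all values were under it.

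Ltc4s, the synthase that joins glutathione to leukotriene A4 to make leukotriene C4, lies at chr11:50236461-50238532 and had 2 probe sets. Probe set 92401_at gave signals of 936.1, 969.3 and 785.3 in BDL replicates 1, 12 and 3, against 1425.2, 1136.7 and 787.0 in sham replicates 1, 2 and 3. The lowest sham mouse lay among the BDL mice, so the groups overlapped. The log2 difference was -0.28 (SE 0.32), which moved to -0.08 when sham replicate 1 was left out and to -0.51 when sham replicate 3 was. Probe set 162391_r_at was under the floor on all 6 arrays, at 4.3 to 16.4 in BDL against 6.5 to 35.1 in sham, so it gave no fold change.

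Ptgs2, the inducible cyclooxygenase, lies on chromosome 1 at chr1:150100031-150108234. Its signals were 40.2, 27.9 and 72.1 in BDL replicates 1, 12 and 3, against 94.6, 25.8 and 6.8 in sham replicates 1, 2 and 3. All 6 values were under the floor and the sham mice spanned the BDL range on both sides. No fold change is given, and a change below the floor would not have been detectable at this signal.

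Ptgds, the lipocalin-type synthase of prostaglandin D2, lies on chromosome 2 at chr2:25466709-25470110 and had 3 probe sets, which differed in direction. Probe set 102105_f_at gave 4026, 4426 and 4071 in BDL replicates 1, 12 and 3, against 3162, 4098 and 3759 in sham replicates 1, 2 and 3. The groups overlapped through sham replicate 2, and the log2 difference was 0.19 (SE 0.27). Probe set 92545_f_at gave 636.1, 358.3 and 726.0 in BDL replicates 1, 12 and 3, against 1110.0, 602.6 and 549.3 in sham replicates 1, 2 and 3. Probe set 92546_r_at gave 229.4, 251.0 and 252.3 in BDL replicates 1, 12 and 3, against 623.7, 270.6 and 217.3 in sham replicates 1, 2 and 3. In both of these sham replicate 1 was the highest array, and the other 2 sham mice lay within the BDL range or close to it. Their log2 differences were -0.38 (SE 0.40) and -0.45 (SE 0.41), and without sham replicate 1 they were -0.07 and 0.01. The suffixes _f and _r mark probe sets that Affymetrix designed on sequence shared by a family or with relaxed design rules, so related transcripts may add to their signal, which was not tested. The mean over the 3 probe sets was -0.21, of opposite sign to the brightest one.

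Over the 3 tested member genes, each taken by its brightest probe set, the log2 differences were negative for Alox12 and Ltc4s and positive for Ptgds, with a median of -0.28. Over all 6897 tested genes the median was -0.01, and 50.8% of differences were negative. Alox12 passed the filter through its sham arrays, with 1 BDL and 3 sham values above the floor, while these probe sets of Ltc4s and Ptgds were above it on all 6 arrays. The median is a description of these genes alone.

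The other genes of the pathway were taken from 6 lists of 83 genes, of which 54 were on the array and 45 were tested. None passed the adjusted threshold in either direction (limma, adjusted p at least 0.832), and 1 gene, Pla2g7, had an unadjusted p under 0.05, where 5.7% of all tested genes reached it. The groups were apart for 3 genes higher in BDL (Pla2g7, Plaa and Ptges2) and 4 lower (Pla2g4a, Tbxa2r, Ptgir and Aloxe3), which compares with 6.32% and 4.26% of all tested genes. Pla2g4a and Ptgir passed the filter through their sham arrays alone, which by itself sets their groups apart. The median log2 difference of the 45 genes was -0.015, with 20 positive and 25 negative. None of the differences in the following paragraphs was a call over the whole array.

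Phospholipases A2 and other genes that supply arachidonic acid had 14 tested members, 9 positive and 5 negative, with a median of 0.08. Pla2g7, the secreted phospholipase that inactivates platelet-activating factor, had signals of 424.0, 212.8 and 396.5 in BDL replicates 1, 12 and 3, against 164.3, 89.3 and 101.5 in sham replicates 1, 2 and 3. All BDL values were above all sham values, and the log2 difference was 1.07 (SE 0.34, limma adjusted p = 0.832). Pla2g6, a calcium-independent phospholipase, differed by 1.09 (SE 0.55) with overlapping groups, since BDL replicate 3 reached 1493.7 and BDL replicate 1 was at 294.8. Pla2g2c and Pla2g10, both secreted phospholipases, had differences of -0.70 (SE 0.66) and -0.68 (SE 0.48), and their groups overlapped. Without sham replicate 1 these were 0.05 and -0.30, while Pla2g7 was at 1.11 and Pla2g6 at 0.95. Pla2g4a, the cytosolic phospholipase that feeds cyclooxygenase and lipoxygenase, was under the floor on all 3 BDL arrays, with 48.0 to 145.1 in BDL against 159.2 to 185.7 in sham.

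Of the other prostanoid synthases 5 were tested, 4 with a positive and 1 with a negative difference. Ptges, the inducible synthase of prostaglandin E2, had signals of 427.5, 265.8 and 392.3 in BDL replicates 1, 12 and 3, against 202.0, 360.2 and 71.2 in sham replicates 1, 2 and 3. Its groups overlapped, and the log2 difference was 0.67 (SE 0.39). Ptges2, a membrane-associated synthase of the same product, had 1361, 1227 and 1535 in BDL replicates 1, 12 and 3, against 628.4, 1006 and 1147 in sham replicates 1, 2 and 3. These groups were apart, with a log2 difference of 0.61 (SE 0.32, limma adjusted p = 0.832) that was 0.35 without sham replicate 1. Ptgis, the prostacyclin synthase, and Cbr1, a carbonyl reductase that acts on prostaglandins, had differences of 0.34 (SE 0.30) and 0.48 (SE 0.37), and their groups overlapped. Tbxas1, the thromboxane synthase, had 2 tested probe sets that differed in direction, at -0.28 (SE 0.39) and 0.30 (SE 0.40), and without sham replicate 1 at 0.10 and 0.21. Of the breakdown genes, Hpgd, which inactivates prostaglandins, differed by -0.19 (SE 0.56), and Ptgr1, a reductase of their oxidised products, by 0.40 (SE 0.53), which became 0.13 and 0.22 without sham replicate 1.

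All 9 listed prostanoid receptors were on the array and 6 were tested. By their brightest probe sets all 6 had a negative difference, with a median of -0.53. Tbxa2r, the thromboxane receptor, had signals of 279.9, 281.4 and 288.0 in BDL replicates 1, 12 and 3, against 657.8, 405.2 and 332.5 in sham replicates 1, 2 and 3. Ptgir, the prostacyclin receptor, was under the floor on all BDL arrays, at 95.3, 88.7 and 140.0, against 194.9, 349.0 and 198.1 in sham replicates 1, 2 and 3. For both receptors the groups were apart, and the difference was -0.66 (SE 0.33, limma adjusted p = 0.832) for Tbxa2r and at least 1.56-fold lower in BDL for Ptgir (limma adjusted p = 0.832). Without sham replicate 1 the Tbxa2r difference was -0.37, and Ptgir was at least 1.72-fold lower. Since Ptgir passed the filter through its sham arrays alone, its groups had to be apart. Ptger1, Ptgfr, Ptgdr2 and Ptger2 had overlapping groups. The brightest Ptgfr probe set differed by -0.51 (SE 0.36), but another tested one ran the other way at 0.37 (SE 0.36). Without sham replicate 1 these were -0.24 and 0.54. Sham replicate 1 was the highest sham array for 5 of the 6 tested receptors, and without it the median was -0.23, with 5 negative and 1 positive. Ptger3 exceeded the floor on 1 array, and Ptger4 and Ptgdr on none.

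**Figure D3:**
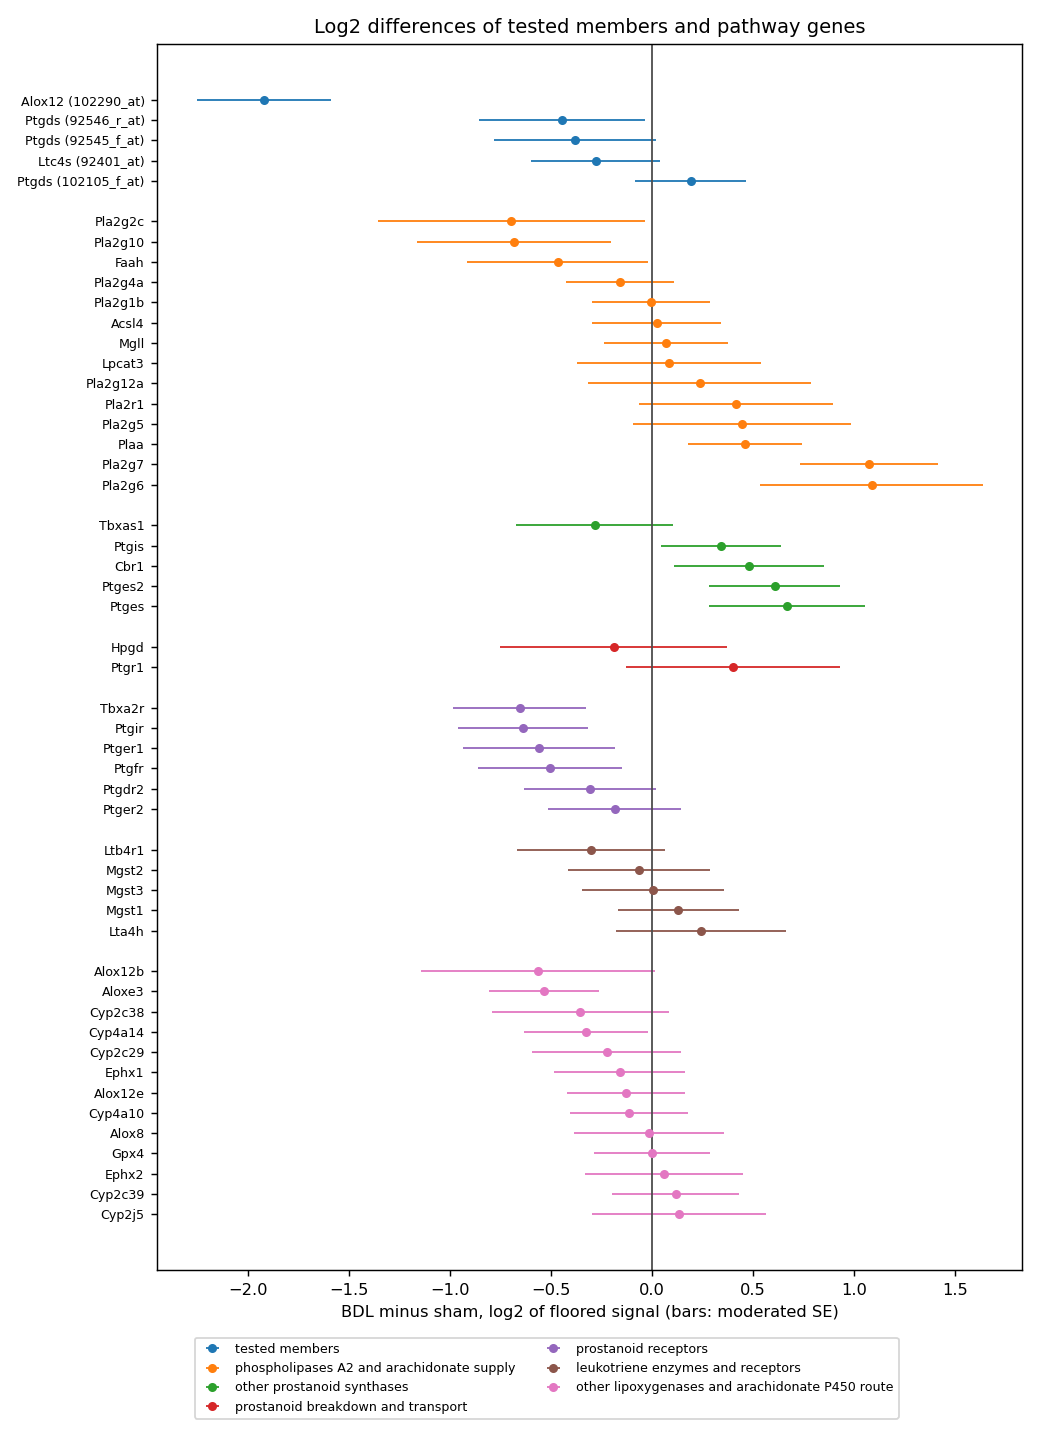
Log2 differences, BDL minus sham, of the 5 tested member probe sets (top) and the 45 tested pathway genes, grouped by role. Points are fitted differences from 3 BDL and 3 sham mice and bars are moderated standard errors; Alox12 at -1.92 lies left of all pathway genes, which run from -0.70 to 1.09.

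The leukotriene enzymes and receptors had 5 tested genes with a median of 0.003 and overlapping groups for each. Lta4h, the hydrolase that makes leukotriene B4, differed by 0.24 (SE 0.42), and Ltb4r1, the receptor for that product, by -0.30 (SE 0.37), which became -0.06 and -0.02 without sham replicate 1. The glutathione transferases Mgst2 and Mgst3, relatives of Ltc4s, differed by -0.07 (SE 0.35) and 0.003 (SE 0.35), and by 0.13 and 0.30 without that array.

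The 4 other mouse lipoxygenases on the array, known mainly from skin, had differences between -0.57 and -0.01, against -1.92 for Alox12, and the difference between them and Alox12 was not tested. Aloxe3, which acts on the products of other lipoxygenases, had signals of 951.5, 828.8 and 989.7 in BDL replicates 1, 12 and 3, against 1476.3, 1261.0 and 1273.2 in sham replicates 1, 2 and 3. Its groups were apart, with a log2 difference of -0.53 (SE 0.27, limma adjusted p = 0.832). Alox12b differed by -0.57 (SE 0.58), Alox12e by -0.13 (SE 0.29) and Alox8 by -0.01 (SE 0.37), all with overlapping groups. Without sham replicate 1 the differences were -0.46 for Aloxe3, -0.003 for Alox12b, -0.09 for Alox12e and 0.24 for Alox8. The cytochromes P450 and epoxide hydrolases that oxidise arachidonic acid, most of them known from hepatocytes, ranged from -0.36 for Cyp2c38 to 0.13 for Cyp2j5, with overlapping groups for each tested gene. Without sham replicate 1 Cyp2c38 was at -0.12 and Cyp2j5 at -0.07. The range was then -0.50 to 0.14, and its lower end, Cyp4a14, had groups apart, lower in BDL.

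Alox12 is best known from platelets, so platelet markers were read beside it. Of 13 platelet markers, 6 were on the array and 4 were tested. Their summed signal was 1368 to 1410 in BDL and 918.3 to 4082 in sham, so the groups overlapped and the BDL mice lay inside the sham range. Gp9, a subunit of the platelet receptor for von Willebrand factor, had 143.4, 108.6 and 105.8 in BDL replicates 1, 12 and 3, against 696.1, 175.0 and 212.1 in sham replicates 1, 2 and 3. It was at least 1.94-fold lower in BDL, with groups apart (limma adjusted p = 0.832), and at least 1.26-fold lower without sham replicate 1. Gp9 passed the filter through its sham arrays alone, which by itself sets its groups apart. Pf4, platelet factor 4, had 248.3, 289.9 and 133.5 in BDL replicates 1, 12 and 3, against 590.6, 449.0 and 58.5 in sham replicates 1, 2 and 3, and its groups overlapped, as did those of F2rl2 and Gp5. The median of the 4 tested markers was -0.47, and -0.04 without sham replicate 1. No platelet marker was under the floor on all arrays, and 1 exceeded it on all 6. The part of platelets in the Alox12 difference was not tested.

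**Figure D4:**
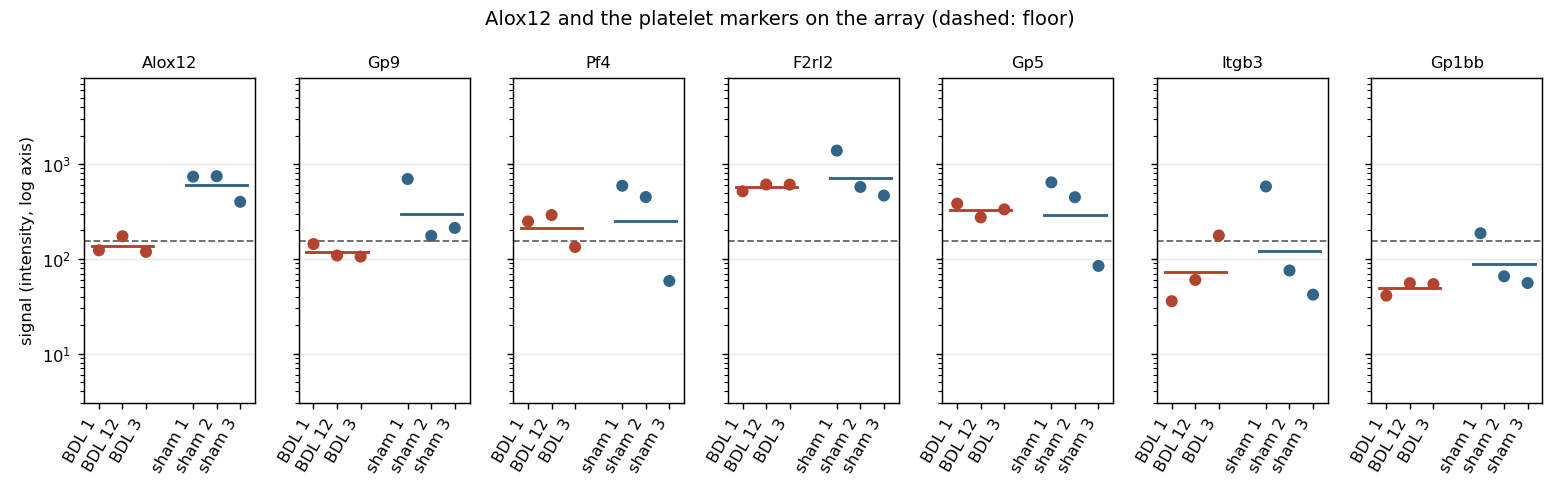
Signals of Alox12 and of the 6 platelet markers on the array, by mouse (BDL red, sham blue, log axis; short lines are geometric means of 3 arrays, dashed line the floor of 152.7). Alox12 and Gp9 have groups apart, while Pf4, F2rl2, Gp5 and Itgb3 overlap. Gp1bb, not tested, has 5 of its 6 signals under the floor, and on the floored scale its groups overlap. Its highest BDL signal is 55.5 and its lowest sham signal 55.7. Sham replicate 1 is the highest sham array in all 6 markers.

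Mast cells and eosinophils also make leukotrienes and lipoxygenase products. Of 9 mast cell markers on the array, 5 were tested, 3 (Mcpt4, Tpsab1 and Fcer1a) were under the floor on every array, and the summed signal was 2759 to 4526 in BDL and 2254 to 5406 in sham. Tpsb2, a mast cell tryptase, had 2841.5, 1337.2 and 1652.9 in BDL replicates 1, 12 and 3, against 2805.5, 3105.8 and 1267.7 in sham replicates 1, 2 and 3, with overlapping groups. It and the chymase Cma1 were above the floor on all 6 arrays. Cpa3, a mast cell protease, had 188.7, 169.0 and 102.7 in BDL replicates 1, 12 and 3, against 1073.0, 574.8 and 346.1 in sham replicates 1, 2 and 3, a log2 difference of -1.82 (SE 0.42, limma adjusted p = 0.667) on a probe set of the _r kind, and -1.40 without sham replicate 1. Hdc, which makes histamine, ran the other way at 0.98 (SE 0.29, limma adjusted p = 0.830). Of the 5 tested markers 2 were positive, the other being Kit at 0.53 (SE 0.37), with overlapping groups. Without sham replicate 1 Hdc was at 0.94 and Kit at 0.77, both with groups apart. The 5 eosinophil markers on the array summed to between 353.4 and 516.6 in BDL and between 353.1 and 1190 in sham. Epx and Il5ra were under the floor throughout. Of the 2 tested, Prg3 differed by -1.11 (SE 0.46, limma adjusted p = 0.832) and Ccr3 by 0.21 (SE 0.28), both with overlapping groups. Without sham replicate 1 these were -0.82 and 0.26. Neutrophil markers summed to 6445 to 9287 in BDL and 5327 to 12362 in sham. Of the 11 tested, 3 had positive and 8 negative differences, from -0.74 to 1.49. Without sham replicate 1, 9 were positive and 2 negative. That array gave the highest sham sum for the mast cell, eosinophil and neutrophil markers. Macrophage and Kupffer cell markers, the cells best known for Ptgs2 and Alox5 in liver, were apart as a sum, at 16013 to 38432 in BDL and 7230 to 13357 in sham. Cd14, a receptor for bacterial lipopolysaccharide, had the widest range of them, at 1873 to 29692 in BDL and 716.6 to 4568 in sham. Without Cd14, a sum added after the data were seen, the other 10 markers came to 8740 to 15214 in BDL and 6054 to 10466 in sham, and the groups overlapped. None of the 10 tested macrophage markers, Cd14 among them, had groups apart, and 8 had positive differences. Their part in the members' values was not tested.

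Genes with a pattern over the 6 arrays most like that of a member were listed by Pearson correlation of floored log2 signals. Candidates were 3651 probe sets of other named genes with an SD of at least 0.5. For Alox12 the genes most alike were Pigq (r = 0.994), Gdf5 (r = 0.978) and Dnaaf5 (r = 0.977), and 38 probe sets had r above 0.9. Most BDL values of Alox12 and of each of these genes were under the floor, and such tied values add to the correlations. Pigq had signals of 101.0, 159.4 and 72.6 in BDL replicates 1, 12 and 3, against 310.1, 321.5 and 260.8 in sham replicates 1, 2 and 3. For Ltc4s they were Igkv1-133 (r = 0.997), Myl6 (r = 0.995) and Rps29 (r = 0.992), with 345 probe sets above 0.9. For the brightest Ptgds probe set they were Rbpms (r = 0.998), Ruvbl2 (r = 0.995) and Btf3 (r = 0.995). The 6 arrays share their scaling and the raised low signals of sham replicate 1, where Ltc4s and its 3 nearest genes were all highest, so these correlations describe the arrays and carry no test.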

How the data were processed

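Liver RNA of 3 BDL and 3 sham mice was measured on Affymetrix U74Av2 arrays, using 20 µg of cRNA for each mouse; groups and replicate numbers come from the sample titles. The deposited values are intensities, on a linear scale with 1 value for each probe set on each array; the authors analysed them with GeneChip software 3.1 and MicroArray Suite 4.0, per the labels' design text. Its settings are not stated in the sources used here. The 2% trimmed mean was 1501 on each array, so the scaling was kept. No detection calls were used, and the number of arrays limits the precision. Of 12488 probe sets, 66 controls were left out, 2880 were under the filter and 9542 were tested with limma 3.58.1 in R 4.3.3. The fit used lmFit and eBayes with 4 residual and 4.67 prior degrees of freedom, no covariates and Benjamini-Hochberg adjustment. The code was tested on simulated data with large differences, no floor and no filter, which does not cover signals near the floor. Figures were drawn with matplotlib 3.10.9.

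Gene names came from the platform annotation and RefSeq (GRCm38.p6): 10833 probe sets had 1 symbol, 396 several and 1193 none, and the brightest probe set on average (log2) stands for a gene. Members and lists were chosen with earlier results of these data known. Named pathway genes are up to 4 per list with the largest absolute difference, named markers those with the highest signal, and up to 3 genes per member are most like it; Pla2g4a, Plaa, Tbxas1, Alox12e, Alox8, Cyp2j5, Mgst3, Gp9, Cpa3, Hdc, Tpsb2, Cma1 and genes named beside a count of 5 or fewer were added after their values were seen.

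Alternatives were quantile normalization, floors at the 10th and 40th percentile, an added constant of 100, testing every probe set, a stricter filter (50th percentile), a variance trend, each array left out, the replicate number as a block, and the mean of a gene's probe sets.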

Additional observations from a re-analysis of the deposited data

How the results depend on the processing

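Over 15 alternatives the Alox12 log2 difference stayed negative, from -2.22 to -0.87, and its groups were apart in each setting. Leaving out an array, or changing the filter or the model, cannot make groups that are apart overlap. In those settings this outcome was fixed beforehand. The filters, the variance trend and the mean of probe sets could not change the Alox12 difference either. Under the stricter filter, though, Alox12 was not among the 2 tested member genes, whose median was -0.04. Of the other tested member probe sets, Ptgds 92546_r_at turned to 0.01 without sham replicate 1, and Ptgds as the mean of its probe sets was -0.21. With the floor at the 10th percentile Alox15 was at -0.93 and, as another tested gene, took the median of the member genes to -0.61. With 1 array left out, that median ran from -0.51 to -0.08 and that of the pathway genes from -0.10 to 0.03. With 0 probe sets past the adjusted threshold under the other alternatives, 3 passed with no filter, none of them a member; the cause was not tested. Unadjusted p under 0.05 was reached by 362 probe sets under the stricter filter, which tested 6338 probe sets, 1176 without sham replicate 3 and 308 without BDL replicate 3. Probe sets with groups apart numbered 1565 to 2872 with 1 array left out, where fewer arrays part more easily. BDL and sham share the label numbers 1 and 3, whose arrays' deviations correlated at 0.209 and 0.246; nothing in the labels pairs these mice. With the replicate block, 651 probe sets had an unadjusted p under 0.05 and 0 passed adjusted, and Alox12 differed by -1.83. Signals near the floor limit Alox15, Ptgs2 and the BDL level of Alox12.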
